A study of Mus musculus with 12 samples.

Results

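The cells described here were the 295 spermatocytes annotated as early pachytene in the authors' deposited cell table among the cells collected at 260 h, out of 929 kept cells in the whole series and 411 kept at that time. They came from 6 libraries, 3 of wild type and 3 of Zfp541 knockout, and the knockout was compared with the wild type after the counts of these cells had been summed per library. A further 7 early pachytene cells collected at 360 h were not included. The series held 12 single-cell Smart-seq2 libraries of hand-picked testis germ cells from C57BL/6 mice, 3 for each genotype at each of the times 260 h and 360 h. All animals, controls included, had been fed WIN 18,446, an inhibitor of retinoic acid synthesis, for 7 days from 2 days after birth, and then received an injection of retinoic acid from which the hours are counted. The wild-type group at 260 h carried the genotype label WT and the knockout group the label Zfp541-/-. Neither the deleted part of the gene nor the number of animals behind each library is stated in the labels. The p-values therefore rest on the variation among these 6 libraries, some of which may be technical.

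Retinoic acid starts meiosis in spermatogonia, and withholding it and then supplying it makes germ cells enter meiosis together. In pachytene, the long middle stage of meiotic prophase, homologous chromosomes are held together along their length by the synaptonemal complex, and spermatocytes switch off genes of earlier stages while switching on genes for meiotic division and sperm formation. The product of Zfp541 is a zinc finger protein present in spermatocytes together with KCTD19, DNTTIP1 and the histone deacetylases HDAC1 and HDAC2.

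The libraries held 25, 57 and 72 early pachytene cells in wild-type replicates 1, 2 and 3 and 59, 50 and 32 in knockout replicates 1, 2 and 3. Their summed gene UMIs (unique molecular identifiers, each marking a cDNA molecule) ranged from 1783543 to 10879840, and the libraries' median gene UMIs per cell ran from 63791 to 151010. The 96 plate barcodes were the same in all libraries. The fixed early pachytene markers were detected in every library, 10 of 10, and their summed level was 4619 to 7385 CPM (counts per 1000000 gene UMIs) in these cells against 1331 to 2310 CPM in the pre-meiotic cells of the same libraries. Sycp1, which encodes the transverse filament of the synaptonemal complex, was at 1660 to 2581 CPM here and at 663 to 1016.5 CPM in the pre-meiotic cells. The 13 late pachytene markers summed to 2918, 3303 and 1689 CPM in the wild-type and 1442, 1217 and 1151 CPM in the knockout libraries, without overlap, against 5805 to 8858 CPM in wild-type late pachytene cells of 360 h. Insl6, Tcp11 and Crisp2, described below, are among these markers. Ccna1, cyclin A1 of the meiotic division, was at 2.24 to 4.50 CPM in these cells and at 47.8 to 64.2 CPM in wild-type late pachytene cells.

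Wild-type replicates 1 and 2 stood apart from the other 4 libraries in the authors' clusters and in macrophage and Leydig markers. The other somatic markers did not set them apart. Peritubular markers summed to 57.2 and 101 CPM in them, but also to 94.6 CPM in knockout replicate 1. Sertoli and endothelial markers were highest in knockout replicate 3, at 64.4 and 7.30 CPM. The authors' k-means cluster 2 held all 25 early pachytene cells of wild-type replicate 1 and 56 of the 57 of replicate 2, and no knockout cell. Cluster 3 held the remaining cell of replicate 2, all 72 of replicate 3 and all knockout cells. On the first principal component of the 6 sums, which held 41.96% of the variance, the wild-type libraries were at 66.0, 44.6 and 7.59 and the knockout libraries between −46.2 and −31.8. On the second (27.4%) wild-type replicates 2 and 3 were at −24.6 and −54.3 and replicate 1 at 39.9. Macrophage markers summed to 35.9 and 55.4 CPM in wild-type replicates 1 and 2 and to 0.184 to 2.58 CPM in the other 4 libraries, with C1qb and Csf1r at 0 in wild-type replicate 3. Leydig markers summed to 108.8 and 66.6 CPM against 16 to 25.8 CPM, with Insl3 at 0 in 4 of 6 libraries. The pre-meiotic cells of replicates 1 and 2 carried these transcripts at a like level, 32.7 and 57.1 CPM for macrophage and 111 and 52.7 CPM for Leydig markers. Their part in the results was not tested, and the calls below were therefore also checked against wild-type replicate 3 alone, which is the same comparison as cluster 3 alone. That fit has only 1 wild-type library, which is assumed to vary like the knockout libraries.

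**Figure D1:**
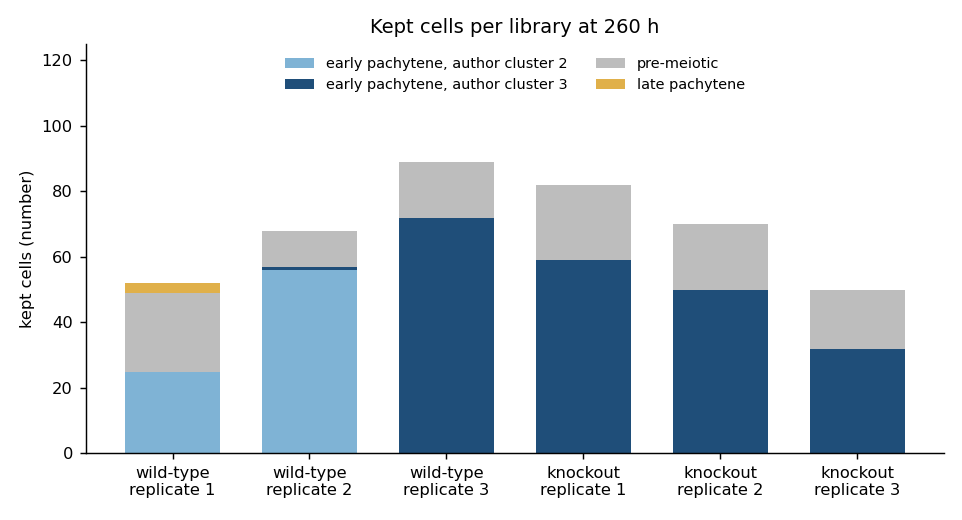
Kept cells (vertical axis, number) of each of the 6 libraries at 260 h, stacked by annotated class, with early pachytene cells split by the authors' cluster. The early pachytene cells of wild-type replicates 1 and 2 lie almost wholly in cluster 2, while those of wild-type replicate 3 and of the 3 knockout libraries lie in cluster 3.

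Zfp541 was read in every library. Wild-type replicates 1, 2 and 3 had 76.3, 102 and 143 CPM, and the 3 libraries labelled knockout had 164, 141 and 142 CPM (log2 fold change 0.47 ± 0.28 SE, edgeR adjusted p = 0.462). The groups overlapped. Because the assay counts 3′ ends and the deleted part is not known, the genotype labels cannot be checked from them. The known partners were not called either: Kctd19 was at 220.5 ± 86.8 CPM in wild type and 147 ± 29.8 CPM in knockout (SD, n = 3 each), and Hdac1, Hdac2 and Dnttip1 had log2 fold changes of −0.10, 0.42 and −0.54.

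Of 13703 genes tested with edgeR's quasi-likelihood test, 435 (3.17%) were called at an adjusted p under 0.05, 271 higher in knockout (1.98%) and 164 lower (1.2%). Protein-coding genes made up 385 of them. For each of the 435 the 3 knockout libraries lay wholly above or wholly below the 3 wild-type libraries, which was so for 21.8% of all genes tested, and 434 differed by at least 2-fold. Against wild-type replicate 3 alone 304 of 18449 genes were called (1.65%), 197 higher (1.07%) and 107 lower (0.58%). All 435 genes kept their direction there, but not all of them were called again. The kept direction is no separate check, since wild-type replicate 3 already lay on the wild-type side of every knockout library. Without wild-type replicate 3 the calls numbered 936 (6.45%). In 114 of the 164 lower genes, and in 117 of the 271 higher genes, wild-type replicate 3 lay on the knockout side of both other wild-type libraries. The share of calls that were higher was 62.3%. With spike-in scaling 84 genes were called, 36.9% of them higher, and the median of all genes moved from −0.06 to −0.45.

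Genes that rose in knockout early pachytene cells included regulators of transcription. Ctcfl, a germ-cell paralog of the chromatin insulator CTCF, was near absent from wild type at 1.86, 1.39 and 1.33 CPM and stood at 43.7, 41.0 and 58.5 CPM in knockout (log2 fold change 5.02 ± 0.43, edgeR adjusted p = 0.000179). All 3 knockout libraries were far above all wild-type libraries. The antisense gene Ctcflos, which overlaps it, rose with it (0, 0 and 2 UMIs in the wild-type libraries and 103, 61 and 43 in the knockout libraries), and without stranded counts their reads cannot be told apart. The homeobox gene Six5 was at 11.2, 2.78 and 3.63 CPM against 103, 50.3 and 87.9 CPM in knockout (3.99 ± 0.51, adjusted p = 0.00159). Its neighbour Gm4969, which encodes MEIOSIN, the partner of STRA8 at meiotic entry, was at 0, 1.16 and 0.796 CPM in wild type and at 34.4, 63.9 and 18.5 CPM in knockout (5.59 ± 0.66). The pair lie tail to tail on chromosome 7 in mm10, Six5 at 19094594 to 19098549 on the plus strand and Gm4969 at 19099046 to 19118368 on the minus strand, without overlapping. The homeobox gene Pbx3 went from 5.35 ± 3.47 to 56.9 ± 13.5 CPM and Tcf7l2, a transcription factor of the Wnt pathway, from 6.98 ± 2.85 to 64.5 ± 21.8 CPM (SD, n = 3 each). Each of these genes kept its call against wild-type replicate 3 alone and in every fit that left out 1 library.

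Other named genes that rose have roles outside transcription. Rasgrp2, an exchange factor that activates small RAS-like GTPases, had the smallest p of all genes, with 7.44, 7.65 and 4.87 CPM in wild type and 148, 122 and 103 CPM in knockout (log2 fold change 4.27 ± 0.33, edgeR adjusted p = 0.000132). The knockout libraries were all far above the wild-type libraries. Iqgap2, a scaffold of the cytoskeleton, went from 2.29 ± 0.731 to 38.5 ± 3.78 CPM, and Dtx4, a ubiquitin ligase of Notch signalling, from 2.90 ± 2.11 to 50.2 ± 16.1 CPM. Atp2b1, a calcium pump of the plasma membrane, was at 14.2 ± 4.44 CPM in wild type and 109 ± 10.7 CPM in knockout, and the LIM-domain scaffold Ajuba at 6.77 ± 1.89 and 61.9 ± 5.06 CPM. Fam81a, Tm7sf3, Ctxn1 and the metalloprotease gene Mmp11 rose by 4.49, 3.66, 2.92 and 3.61 on the log2 scale. These 9 genes were all called against wild-type replicate 3 alone, where Rasgrp2 had a log2 fold change of 4.63 and Mmp11 one of 2.70. Mmp11 overlaps Chchd10, which also rose (2.36), and Tm7sf3 overlaps Med21, which was not called. Adgrb2, an adhesion receptor chosen here after its values were seen, had 0, 2 and 1 UMIs in the wild-type libraries and 329, 94 and 118 in the knockout libraries.

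Within the amino acid stress response, the programme that cells use when amino acids run short, 2 of 26 genes tested were higher and none lower. Over all genes tested 1.98% were called higher. The median of the list was 0.07 beside −0.06 for all genes tested. Asns, asparagine synthetase, was at 13.6, 4.87 and 3.01 CPM in wild type and at 99.7, 57.4 and 89.2 CPM in knockout (log2 fold change 3.73 ± 0.50, edgeR adjusted p = 0.0019). Mthfd2, a mitochondrial enzyme of the folate cycle, was at 63.2, 34.8 and 24.7 CPM against 145, 148 and 149.8 CPM (1.89 ± 0.34). Both were called against wild-type replicate 3 alone. The call of Mthfd2 was lost without wild-type replicate 2 (log2 fold change 1.78), without knockout replicate 1 and with spike-in scaling. When all kept cells of the libraries were summed, the calls of both genes were lost.

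Of 30 genes of meiotic entry and early prophase, 4 were higher and 1 was lower, beside 1.98% and 1.2% of all genes called higher and lower. The list median was 0.09 beside −0.06 for all genes. Besides Gm4969 the higher ones were Tex15, needed for meiotic recombination and for silencing by piRNAs, Ugt8a, a galactosyltransferase of germ-cell lipids, and Mei4, a partner of SPO11 in making DNA breaks, named here because the list's count would otherwise be incomplete. Tex15 was at 86.2, 63.3 and 70.7 CPM in wild type and at 203, 326 and 249 CPM in knockout (1.83 ± 0.27, edgeR adjusted p = 0.00304), with no overlap between the groups. Ugt8a went from 4.07 ± 0.958 to 29.8 ± 5.37 CPM and Mei4 from 1.32 ± 0.939 to 12.2 ± 3.80 CPM. Against wild-type replicate 3 alone Tex15, Ugt8a and Spo11 were called and Mei4 was not (adjusted p = 0.153). The lower gene was Spo11, which encodes the enzyme that cuts DNA to start recombination, at 61.4, 126 and 107 CPM against 42.2, 37.3 and 37.0 CPM (−1.34 ± 0.31, adjusted p = 0.0314). Its call was lost when any of 4 libraries was left out (wild-type replicate 2 or a knockout replicate), while its direction stayed.

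Of 41 chromatin genes 2 were higher and none lower (median −0.09). This share, and those of the meiotic division, p53 and ribosomal lists in this paragraph, are near the 1.98% of all genes called higher, so the genes are given singly. Hells, a helicase that helps to maintain DNA methylation, was at 97.3, 91.8 and 139 CPM in wild type and at 469.7, 650.5 and 416 CPM in knockout (2.22 ± 0.29, edgeR adjusted p = 0.00159). The groups did not overlap. Ehmt1, a histone H3 methyltransferase, went from 25.2 ± 6.99 to 77.2 ± 21.3 CPM. Sgo1, the protector of sister chromatid cohesion, was the single gene called among 34 of the meiotic division, at 26.9 ± 4.21 and 71.0 ± 11.6 CPM. Bax, a pore-forming protein of cell death, was the single gene called among 26 p53 and apoptosis genes (39.3 ± 16.8 and 111 ± 30.4 CPM). Trp53i13, which is outside this list, was also called higher, a call lost without knockout replicate 1 and with spike-in scaling. Of 79 ribosomal protein genes tested 2 were called, both higher: Rpl13 and Rps2, with log2 fold changes of 1.45 and 1.02. The median of the ribosomal list was 0.17, was 0.75 against wild-type replicate 3 alone and was −0.05 with spike-in scaling. Ehmt1, Sgo1, Bax, Rpl13 and Rps2 were not called against wild-type replicate 3 alone, where their log2 fold changes were 1.22, 1.22, 0.89, 0.86 and 0.77. Of 17 testis proteases 1 was called, the serine protease Prss41, which was higher (15.2 ± 4.38 and 87.4 ± 28.9 CPM), beside 1.98% of all genes.

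**Figure D2:**
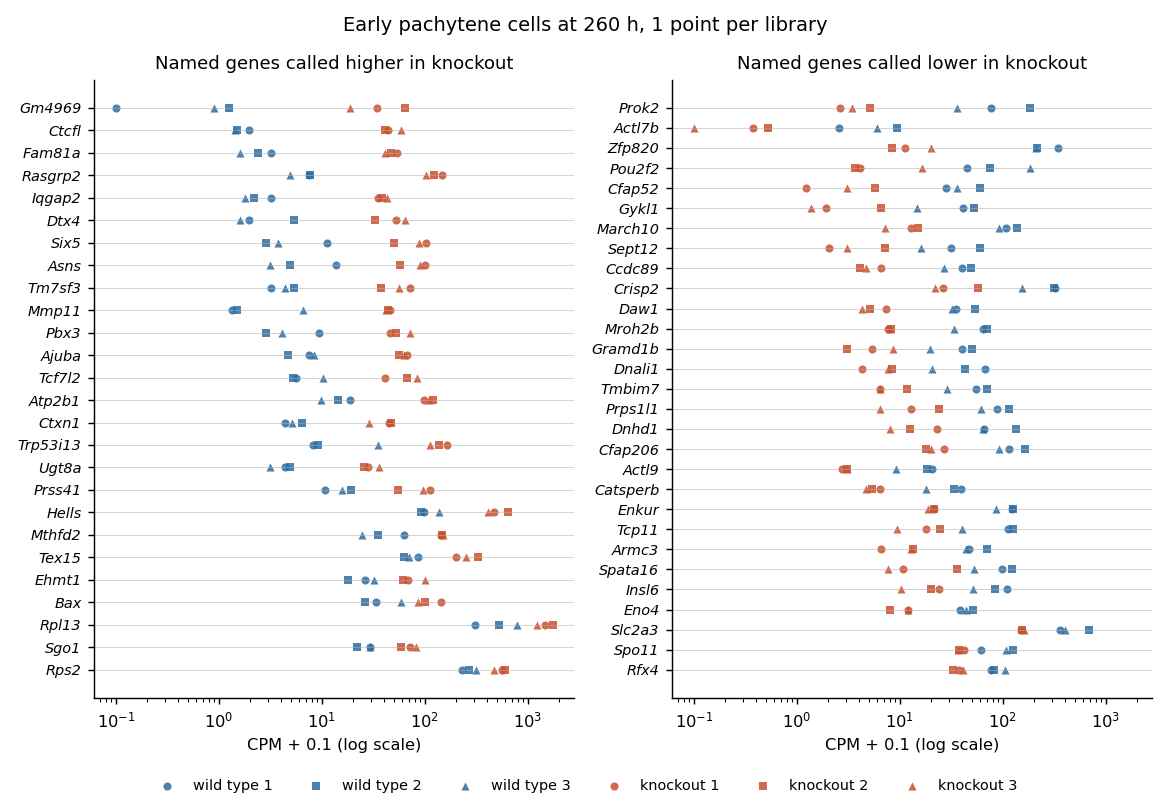
Level of each named gene that was called (horizontal axis, CPM + 0.1, log scale) in the early pachytene cells of each library, with 1 point per library, wild type in blue and knockout in orange, and the replicate number given by the marker shape. Zfp541 is not drawn. As in all 435 called genes, the 3 wild-type points and the 3 knockout points of every gene shown do not overlap. Among the lower genes the triangle of wild-type replicate 3 often lies nearest to the knockout.

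Regulators were also among the genes that fell. Zfp820, a zinc finger gene on chromosome 17 (21816885 to 21845772), was at 347, 216 and 211 CPM in wild type and at 11, 8.38 and 20.2 CPM in knockout (log2 fold change −4.32 ± 0.38, edgeR adjusted p = 0.000186). It was high in each wild-type library, replicate 3 included (−4.10 against that library alone). Similar zinc finger genes could share its reads. Pou2f2, a POU homeobox factor, was at 45.3, 75.3 and 184 CPM against 4.04, 3.56 and 16.4 CPM (−3.80 ± 0.72, adjusted p = 0.0245). Its wild-type libraries spread widely, and its call was lost without wild-type replicate 2 or without knockout replicate 1 or 2. Rfx4, of the family of transcription factors that drive cilium genes, fell less, from 88.0 ± 14.9 to 37.1 ± 3.86 CPM (−1.25 ± 0.27). Prok2, which encodes the secreted ligand prokineticin 2, had the largest fall of the named genes, from 76.3, 183 and 35.6 CPM to 2.51, 5.03 and 3.37 CPM (−4.76 ± 0.61), and every knockout library was below every wild-type library. In all, 1 of 46 germ-cell transcription factors was higher and 3 were lower (median −0.17). Of 19 homeobox genes 2 were higher and 1 was lower (median 0.14). Over all genes 1.98% were called higher and 1.2% lower, and these small counts are not read as results about the lists.

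The largest group that fell was that of the axoneme and cilium, the machinery of the sperm tail. Of 77 genes tested, 15 were lower and none higher, beside 1.2% of all genes called lower, and 71 of 77 had a negative log2 fold change. The list median was −0.87 beside −0.06 for all genes. Cfap206, a component near the radial spokes, was at 115, 165 and 91.0 CPM in wild type and at 27.0, 17.8 and 19.8 CPM in knockout (−2.51 ± 0.32, edgeR adjusted p = 0.00159). Enkur, a tail protein that binds calcium channels, was at 122, 124 and 85.2 CPM against 21.3, 21.6 and 18.5 CPM (−2.42 ± 0.29), and Cfap52, a protein inside the tail's microtubules, at 27.9, 60.3 and 36.1 CPM against 1.11, 5.65 and 2.94 CPM (−3.70 ± 0.56). For all 3 genes each wild-type library was above each knockout library and the call held against wild-type replicate 3 alone.

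Dynein genes, which encode the motors of the tail or their assembly factors, were among the members that fell. Dnhd1, a dynein heavy chain protein, went from 87.7 ± 39.1 to 14.4 ± 7.53 CPM, and Dnali1, a light intermediate chain, from 43.6 ± 23.7 to 6.71 ± 2.23 CPM (edgeR adjusted p = 0.00944). Zmynd10 and Armc4, which serve the assembly and docking of dynein arms, fell by 1.14 and 3.13 on the log2 scale. Rsph9 of the radial spoke, Hydin of the central pair and Tekt1, a filament protein of the microtubules, had log2 fold changes of −1.81, −1.36 and −1.73. Against wild-type replicate 3 alone 9 of the 77 were called lower and 1 higher, with a median of −0.41. Over the fits that left out 1 library the number called lower ran from 6 to 29. It was 6 without wild-type replicate 2 or knockout replicate 3, 7 without knockout replicate 1 or 2 and 6 with spike-in scaling. Against wild-type replicate 3 alone Dnali1, Tekt1, Rsph9, Ak8, Zmynd10, Hydin and Armc4 lost their call, and Ccdc63 (lower) and Spef2 (higher) gained one. Daw1, a dynein assembly factor outside the list, fell with the named genes, from 40.0 ± 11.6 to 5.49 ± 1.57 CPM. Dnaic2, a dynein intermediate chain also outside the list, was chosen here after its values were seen. It moved the other way, from 2, 1 and 2 UMIs in the wild-type libraries to 128, 103 and 74 in the knockout libraries (edgeR adjusted p = 0.00128). The lack of a gene called higher thus holds for the members of this list and not for all dynein genes.

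The promoters of the genes that fell were read for motifs of factors that work in spermatocytes, because Rfx4 and many cilium genes were among them. RFX proteins bind the X-box, here GTTGCC, then NN, then GGNAAC (both strands), and this was in 4 of 101 promoters of genes called lower (3.96%), 1 of 194 of genes called higher (0.515%) and 0.546% of the 9150 promoters of all protein-coding genes tested. The promoters are RefSeq windows of GRCm38.p6, from 250 bases before to 50 bases after each start. Below are the 120 bases before the start of the 3 genes called lower that hold the RFX letters in capitals. In Ccdc180, the other gene, the letters lie beyond the start. Ccdc175 is at chr12:72185030-72185149, Pifo at chr3:106001498-106001617 and Ttc30a2 at chr2:75978180-75978299, all on the minus strand, and the letters start 14, 20 and 24 bases before the start. The RefSeq start of Pifo is not the start that the deposited table gives for the gene (offset −13149 bases).
Ccdc175: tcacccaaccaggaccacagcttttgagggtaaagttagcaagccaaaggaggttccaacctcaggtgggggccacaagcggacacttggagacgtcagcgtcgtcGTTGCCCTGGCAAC
Pifo: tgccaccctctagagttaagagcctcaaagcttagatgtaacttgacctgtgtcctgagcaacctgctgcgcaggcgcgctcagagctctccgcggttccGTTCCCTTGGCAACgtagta
Ttc30a2: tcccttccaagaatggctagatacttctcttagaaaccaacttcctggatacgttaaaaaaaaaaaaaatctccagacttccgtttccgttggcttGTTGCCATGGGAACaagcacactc

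The core letters of MYB factors, GGCAGTT (both strands), were in 11 of the 101 promoters of lower genes (10.9%), 11 of the 194 of higher genes (5.67%) and 4.47% of all. MYBL1 is the MYB factor of pachytene spermatocytes, and Mybl1 itself was at 214 ± 37.6 CPM in wild type and 153 ± 17.1 CPM in knockout (edgeR adjusted p = 0.375). Among the named lower genes Catsperb, Mroh2b and Rfx4 hold these letters in the 120 bases before their RefSeq start, in capitals below, all on the plus strand. Catsperb is at chr12:101404553-101404672, Mroh2b at chr15:4898617-4898736 and Rfx4 at chr10:84838028-84838147, where the RefSeq start lies 82086 bases inside the gene as the deposited table bounds it. The letters TGACGTCA of CREB and CREM, both strands, were in 3.96% of lower, 3.09% of higher and 3.79% of all promoters. A match describes the letters of a window and is not a measured binding site.
Catsperb: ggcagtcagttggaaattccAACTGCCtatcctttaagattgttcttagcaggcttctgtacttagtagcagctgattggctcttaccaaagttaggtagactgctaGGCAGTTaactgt
Mroh2b: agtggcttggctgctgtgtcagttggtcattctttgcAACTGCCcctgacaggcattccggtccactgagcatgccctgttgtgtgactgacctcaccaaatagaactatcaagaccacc
Rfx4: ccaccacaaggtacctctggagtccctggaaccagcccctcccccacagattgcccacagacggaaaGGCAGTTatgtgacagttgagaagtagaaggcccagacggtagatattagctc

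The pachytene programme held 5 genes called lower and none higher among 35 tested, beside 1.2% of all genes called lower (median −0.67 beside −0.06). Crisp2, a protein of the acrosome and tail, was at 319.9, 315 and 154 CPM in wild type and at 26.0, 57.8 and 21.9 CPM in knockout (−2.89 ± 0.41, edgeR adjusted p = 0.00257), with wild-type replicate 3 below the other wild-type libraries and above all knockout libraries. Insl6, a relaxin-like peptide of germ cells, fell from 81.7 ± 29.2 to 18.0 ± 7.10 CPM. Tcp11, a protein of the sperm tail, went from 92.3 ± 45.7 to 17.1 ± 7.64 CPM, and Catsperb, a subunit of the sperm calcium channel, from 30.2 ± 11.1 to 5.38 ± 0.830 CPM. Rfx4 was the remaining member. Against wild-type replicate 3 alone only Crisp2 and Rfx4 of these 5 were called, and the list median was −0.48. The call of Rfx4 was lost without wild-type replicate 2 and without each knockout replicate, and the list's number called lower ran from 1 (without knockout replicate 3) to 9 (without wild-type replicate 3), with 2 without wild-type replicate 2 or knockout replicate 1. Piwil1, the PIWI protein of pachytene piRNAs, was not called (759.8 ± 265 and 319.8 ± 116 CPM, edgeR adjusted p = 0.0701). Of 27 piRNA pathway genes only Tex15 was called, which was higher, beside 1.98% of all genes called higher.

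Germ-cell versions of metabolic enzymes had 5 lower and none higher of 20 tested, beside 1.2% of all genes called lower (median −0.66 beside −0.06). Slc2a3, the glucose transporter GLUT3, was at 362, 681 and 406 CPM in wild type and at 151, 154 and 160.3 CPM in knockout (−1.64 ± 0.28, edgeR adjusted p = 0.00815). Eno4, an enolase of the sperm tail, went from 44.6 ± 6.40 to 10.6 ± 2.27 CPM, Prps1l1, a testis phosphoribosyl pyrophosphate synthetase, from 88.3 ± 27.5 to 14.3 ± 8.88 CPM, Gykl1, a glycerol kinase-like gene, from 35.9 ± 19.3 to 3.19 ± 2.87 CPM, and Pdha2, the testis subunit of pyruvate dehydrogenase, from 390.3 ± 53 to 176 ± 36.6 CPM. Slc2a3, Eno4 and Prps1l1 were also called against wild-type replicate 3 alone, where the list median was −0.12. Slc2a3 lost its call without wild-type replicate 2 or knockout replicate 1 or 3, and Prps1l1 without knockout replicate 1. The list's number called lower was 1 without knockout replicate 1, 2 without wild-type replicate 2 or knockout replicate 3, and 8 without wild-type replicate 3. Of 12 spermatid and acrosome genes tested 3 were lower, beside 1.2% of all genes (median −0.88): Actl9 and Actl7b, actin-like proteins of the sperm head, and Spata16, an acrosome protein. Actl7b had 2, 2 and 0 UMIs in the knockout libraries. None of the 3 was called against wild-type replicate 3 alone, without wild-type replicate 2 or without knockout replicate 1 or 3. The 8 spermatid markers used to check the cells went the other way, with a summed level of 12.3, 27.7 and 41.5 CPM in wild type and 44.2, 60.2 and 45.5 CPM in knockout.

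Other named genes that fell include March10, a RING ubiquitin ligase, at 107, 137 and 92.6 CPM in wild type and 12.7, 14.9 and 7.15 CPM in knockout (−3.24 ± 0.34, edgeR adjusted p = 0.000553). The septin Sept12 of the sperm annulus went from 36.1 ± 22.5 to 4.01 ± 2.74 CPM, and Mroh2b from 56.2 ± 19.8 to 7.89 ± 0.334 CPM. Ccdc89, Gramd1b and Tmbim7 had log2 fold changes of −2.91, −2.76 and −2.65. Of these 6, March10, Mroh2b and Ccdc89 were called against wild-type replicate 3 alone.

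**Figure D3:**
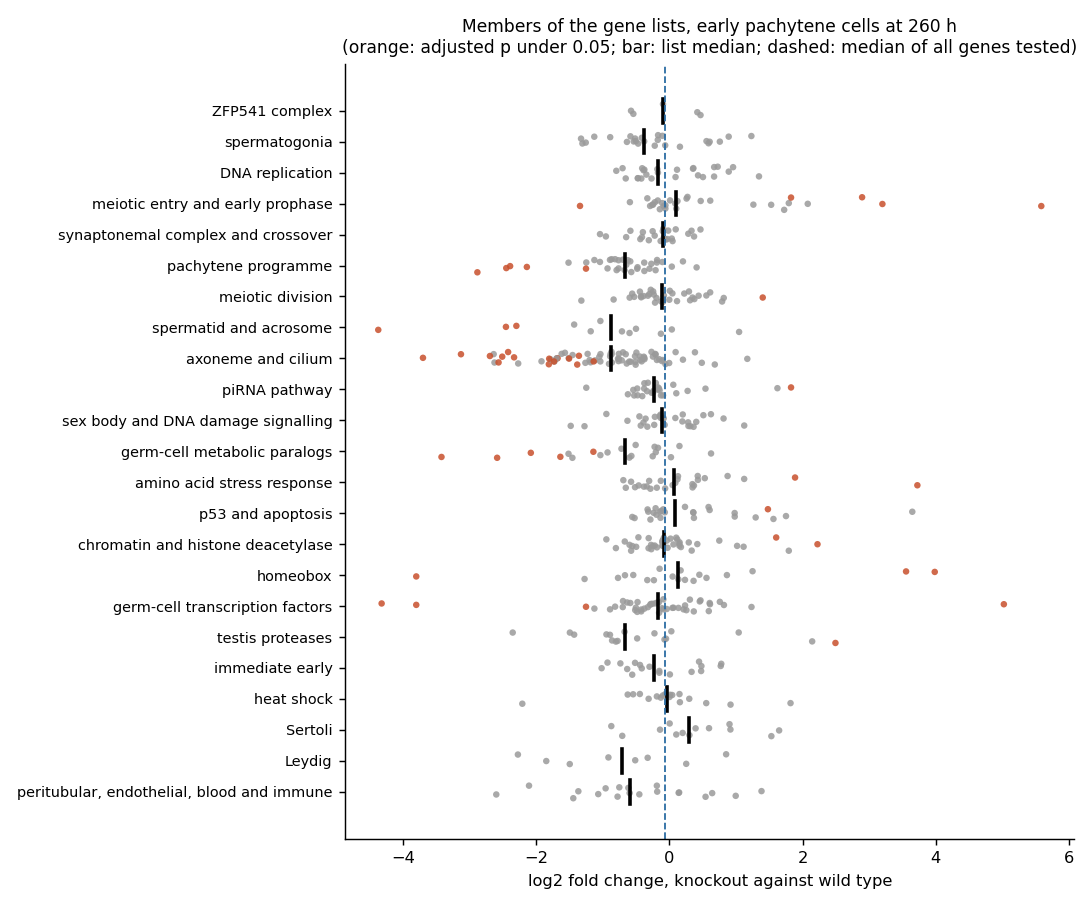
Log2 fold change (horizontal axis, knockout against wild type) of every tested member of each gene list in early pachytene cells at 260 h, 1 point per gene, with called genes in orange, the list median as a black bar and the median of all genes tested as a dashed line. The axoneme list has 15 orange points, all to the left, while the synaptonemal complex list has none.

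The lists for the core of the pachytene chromosome machinery held no called gene, beside 3.17% of all genes tested called in either direction. None of 24 synaptonemal complex and crossover genes passed the test in either direction (median −0.10), and Sycp1 had a log2 fold change of −0.03 ± 0.28. None was called among 29 genes of the sex body and DNA damage signalling, 25 of DNA replication, 25 of spermatogonia, 18 of heat shock, 18 immediate early genes, 16 mitochondrial genes and 8 Y-linked genes. At the share of all genes, lists of 8 to 29 genes are too small for the lack of a call to be read as a result about them. None of 310 X-linked genes was called, beside 3.17% of all genes (median −0.28, and 0.16 against wild-type replicate 3 alone). X-linked genes gave 0.438 ± 0.125% of gene UMIs in wild type and 0.435 ± 0.0484% in knockout (exact two-sided permutation test, p = 1, where 3 against 3 libraries cannot go below 0.1). The Y-linked share (p = 0.4), the mitochondrial share (p = 0.7) and the gene UMIs per spike-in UMI (p = 0.8), tested the same exact way, each had an adjusted p of 1 over these 4 values. Gene UMIs per spike-in UMI were 7.32, 10.4 and 19.2 for the wild-type libraries, against 10.4, 8.44 and 9.52 for the knockout libraries. The somatic lists for Sertoli (13 tested), Leydig (8) and peritubular, endothelial, blood and immune cells (19) had no called gene with all libraries. Against wild-type replicate 3 alone 4 genes of the last list were called higher and its median was 2.53, beside −0.60 with all libraries, and without that replicate 2 Leydig genes and 1 gene of the last list were called lower.

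How far a list fell depended on the wild-type libraries used. Without wild-type replicate 3 the axoneme median was −1.05, with 29 members lower, and the median of the metabolic list −0.90. Against that library alone they were −0.41 and −0.12. The pachytene medians were closer, −0.68 and −0.48. The meiotic entry list was at −0.01 without wild-type replicate 3 and at 0.42 against it. In each of these fits the axoneme, pachytene, spermatid and metabolic medians stayed below the median of all genes, which over the same genes was −0.06 without that library and 0.00 against it.

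**Figure D4:**
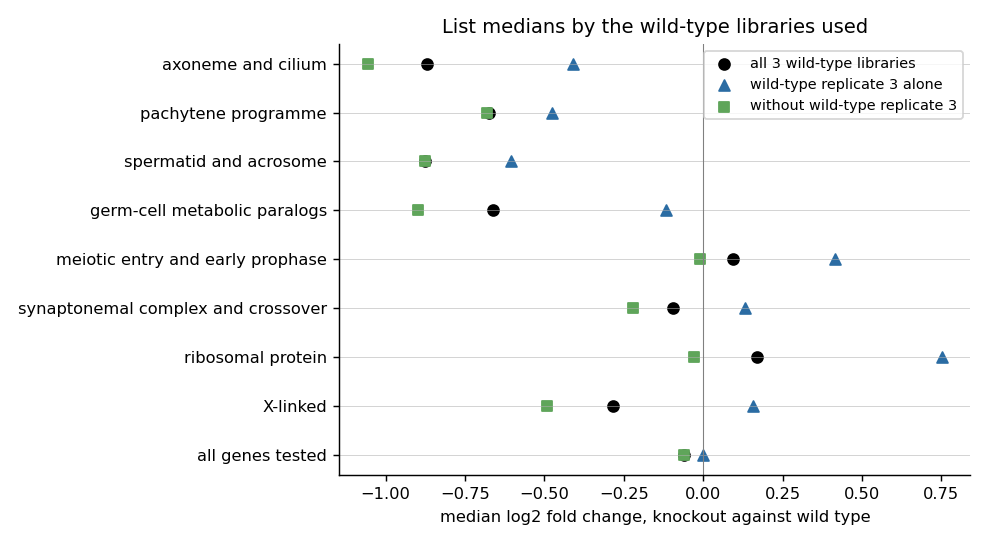
Median log2 fold change (horizontal axis) of 8 gene lists and of all genes tested in early pachytene cells at 260 h, with all 3 wild-type libraries (black circles), with wild-type replicate 3 as the only one (blue triangles) and without it (green squares). The axoneme, pachytene, spermatid and metabolic medians are negative with each choice, and those of the X-linked, synaptonemal, ribosomal and meiotic entry lists change sign.

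For Rasgrp2, Ctcfl and Zfp820, which have the smallest p, the share of cells with a UMI was counted. Rasgrp2 had a UMI in 98.3%, 90.0% and 96.9% of knockout early pachytene cells and in 44.0%, 36.8% and 41.7% of wild-type cells. After each cell had been thinned to 40000 gene UMIs the shares were 94.9%, 86.0% and 96.9% against 28.0%, 26.3% and 15.3%. For Ctcfl the thinned shares were 66.1%, 52.0% and 81.2% in knockout and 8.00%, 8.77% and 6.94% in wild type (unthinned 76.3%, 62.0% and 87.5% against 12%, 10.5% and 19.4%). Zfp820 went the other way, with thinned shares of 20.3%, 20.0% and 40.6% in knockout and 88.0%, 96.5% and 95.8% in wild type (unthinned 30.5%, 28.0% and 46.9% against 88.0%, 98.2% and 98.6%). All groups were apart for the 3 genes. A class free of these transcripts was not at hand as a background: among the pre-meiotic cells of the same libraries 76.5% to 100% had a Rasgrp2 UMI. These shares have no test, since cells of a library are not replicates.

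The knockout effect in early pachytene cells was next set against that in pre-meiotic cells. These were the 113 cells of that class in the same 6 libraries, also collected at 260 h. With the library as a block, 223 of 14293 genes (1.56%) differed in their knockout effect between the classes by edgeR's test, 201 with a more positive effect in early pachytene cells and 22 with a more negative one. Pre-meiotic cells alone gave 4 called genes of 12223 (0.0327%) and 1181 at an unadjusted p under 0.05. Of the 435 genes called in early pachytene cells, 104 were among the 223, which is 23.9% of the former and 46.6% of the latter. Both fits use the same libraries. Values by cell class are plain CPM, scaled by the gene UMIs of those cells only.

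Rasgrp2 was at 77.2, 36.6 and 28.9 CPM in wild-type pre-meiotic cells and at 82.1, 68.9 and 69.1 CPM in knockout ones. In early pachytene cells the wild type had come down to 6.73, 7.87 and 5.06 CPM and the knockout stood at 148, 114 and 105 CPM (difference of the log2 fold changes 3.53 ± 0.32, edgeR adjusted p = 3.9e-06). The genotypes overlapped in pre-meiotic cells and were apart in early pachytene cells. Asns showed the same order, with 45.6, 13.2 and 18.1 against 31.8, 27.1 and 24.3 CPM in pre-meiotic cells (difference 3.61 ± 0.41), as did Tm7sf3 (3.17 ± 0.39), Tcf7l2 (3.10 ± 0.40) and Tex15 (1.59 ± 0.21, adjusted p = 0.000429). Tex15 was at 389.6 ± 90.8 CPM in wild-type pre-meiotic cells and 72.2 ± 6.49 CPM in wild-type early pachytene cells, against 473 ± 80.9 and 254 ± 50.1 CPM in knockout. These 5 differences were also called with wild-type replicate 3 as the only wild-type library and without each library in turn. Ctcfl differed by 3.57 ± 0.71 (adjusted p = 0.0118), a call lost with wild-type replicate 3 as the only wild-type library (adjusted p = 0.746) and without wild-type replicate 1, whose pre-meiotic cells had 21 CPM beside 4.39 and 1.35 CPM in the others.

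In the other direction, Zfp820 was at 47.2 ± 13.4 CPM in wild-type and 9.63 ± 2.91 CPM in knockout pre-meiotic cells. It was not called there (log2 fold change −2.26, edgeR adjusted p = 0.0959). The gap was wider in early pachytene cells (difference −2.05 ± 0.46, edgeR adjusted p = 0.0394). The call of that difference was lost without knockout replicate 1 or 2. Leo1, of the PAF1 transcription complex, and Smim13 had effects of −1.63 and −1.45 in early pachytene cells and of −0.11 and 0.09 in pre-meiotic cells. Their differences were −1.47 ± 0.30 and −1.43 ± 0.32. Both calls were lost without wild-type replicate 2 or knockout replicate 1 and with wild-type replicate 3 as the only wild-type library (adjusted p = 0.161 and 0.313), and that of Smim13 also without knockout replicate 2. Crybg3 was at 24.2 ± 15.1 CPM in wild-type and 85.9 ± 39.8 CPM in knockout pre-meiotic cells and at 32.2 ± 19.5 and 7.50 ± 1.59 CPM in early pachytene cells, a difference of −3.55 ± 0.52. Pou2f2 differed by −2.34 ± 0.43, a call lost without knockout replicate 1.

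The axoneme list did not differ in this way. In pre-meiotic cells its median log2 fold change was −0.99 over 61 genes tested, with 55 negative and none called, beside −0.87 over 77 genes in early pachytene cells, and 1 of 75 genes, Cfap69, was called for a difference between the classes (median difference 0.01 beside 0.13 for all genes). Its summed level in pre-meiotic cells was 2471, 4520.1 and 3448 CPM in wild type and 1900.5, 1782 and 1500.6 CPM in knockout. In early pachytene cells it was 11308, 11000.3 and 7473 CPM against 6451, 6432 and 5809.6 CPM, with no overlap between the genotypes in either class. Pachytene programme genes had a median of −1.04 in pre-meiotic cells and metabolic paralogs −1.14, again with no gene called. The late pachytene markers summed to 691, 1528 and 901 CPM in wild-type and 396, 407 and 274 CPM in knockout pre-meiotic cells. The source of such transcripts in pre-meiotic cells was not tested. Ribosomal protein genes had 10 of 78 members with a more positive effect in early pachytene cells, beside 1.41% of all genes, and none with a more negative one, among them Rps19 (0.93 ± 0.14).

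Early pachytene cells of 260 h were last compared with the 487 cells annotated late pachytene in the 360 h libraries of the same genotypes. Within that class the early pachytene markers summed to 3630, 4499 and 4361 CPM in knockout and 2107, 2010 and 2255 CPM in wild type. The late pachytene markers summed to 4865 to 5851 CPM in knockout and 5805 to 8858 CPM in wild type. The part of these marker levels in the differences below was not tested. The 2 times share no library. By edgeR's test the knockout effect differed for 1417 of 18692 genes (7.58%). At 260 h it was more positive for 763 and more negative for 654. Late pachytene effects were read from this same joint fit of both times, which gave 4693 called genes at 360 h (25.1%). For early pachytene cells the joint fit called 576 genes, beside 435 in the fit of 260 h alone. Of the 435 early pachytene calls 139 were among the 1417 (31.9% of the former, 9.81% of the latter). Tcf12, a helix-loop-helix transcription factor, was at 53.3, 54.9 and 55.2 CPM in wild-type early pachytene cells and at 81.5, 101 and 104 CPM in knockout ones (log2 fold change 0.82, adjusted p = 0.117). In late pachytene cells it was at 3.88, 2.54 and 3.25 against 94.1, 106 and 99.9 CPM (difference −3.92 ± 0.35, adjusted p = 2.07e-05).

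Acot13, a thioesterase, and Dip2c were higher in knockout at both stages, by 1.84 and 1.40 on the log2 scale in early and by 6.23 and 5.49 in late pachytene cells (edgeR adjusted p of the differences 2.07e-05 and 0.00018). Tmem160 likewise had effects of 2.57 and 6.68. The early effect of Dip2c was not called against wild-type replicate 3 alone (adjusted p = 0.202). Wdr20rt and Igbp1b, both testis genes, were at 30.2 ± 4.90 and 28.3 ± 5.94 CPM in wild-type early pachytene cells and 16.1 ± 1.67 and 16.8 ± 2.39 CPM in knockout ones, neither called, and had effects of −6.32 and −5.68 in late pachytene cells. Zfp820 was the reverse, with an effect seen at 260 h and not at 360 h (difference −4.71 ± 0.57). In late pachytene cells it was at 10.1, 5.23 and 3.36 CPM in wild type and 10.4, 5.53 and 11.5 CPM in knockout, overlapping groups. The wild type was there about as low as the knockout at 260 h (8.38 to 20.2 CPM in the main comparison), so a fall could hardly be seen. These 7 differences were called without each library of 260 h in turn and with wild-type replicate 3 as the only wild-type library of 260 h.

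The genes of the synaptonemal complex, of which none was called in early pachytene cells, had 13 of 24 members with a more negative effect at 260 h than at 360 h, beside 3.5% of all genes, and none with a more positive one. Hfm1, a crossover helicase, was at 315, 272 and 278 CPM in wild type and 278, 367 and 272 CPM in knockout at the early stage and at 65.3 ± 5.08 against 460.8 ± 43.1 CPM at the late stage (difference −2.48 ± 0.35, edgeR adjusted p = 0.000543). The axoneme list had 6 of 83 members with a more positive effect at 260 h, beside 4.08% of all genes. It had 1 member with a more negative effect. In the joint fit of both times its late pachytene median was −1.24, with 53 of 83 called lower, beside 14.7% of all genes. Ccna1 and Aurkc, a kinase of the meiotic division, were at 2.24 to 4.50 and 2.24 to 15 CPM in the early pachytene libraries, with overlapping genotypes, and lower in knockout at 360 h by 3.78 and 4.81 on the log2 scale.

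Set beside the wild-type course of these genes, the directions differed. Of the 271 genes called higher, 225 (83.0%) had a higher mean in wild-type pre-meiotic cells than in wild-type early pachytene cells, beside 52.2% of all genes tested. Of the 164 called lower, 4 (2.4%) did, and 133 (81.1%) had a higher mean in wild-type late pachytene cells, beside 33.6% of all genes. The same wild-type early pachytene values enter both the calls and these shares, so they are a description and have no test.

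**Figure D5:**
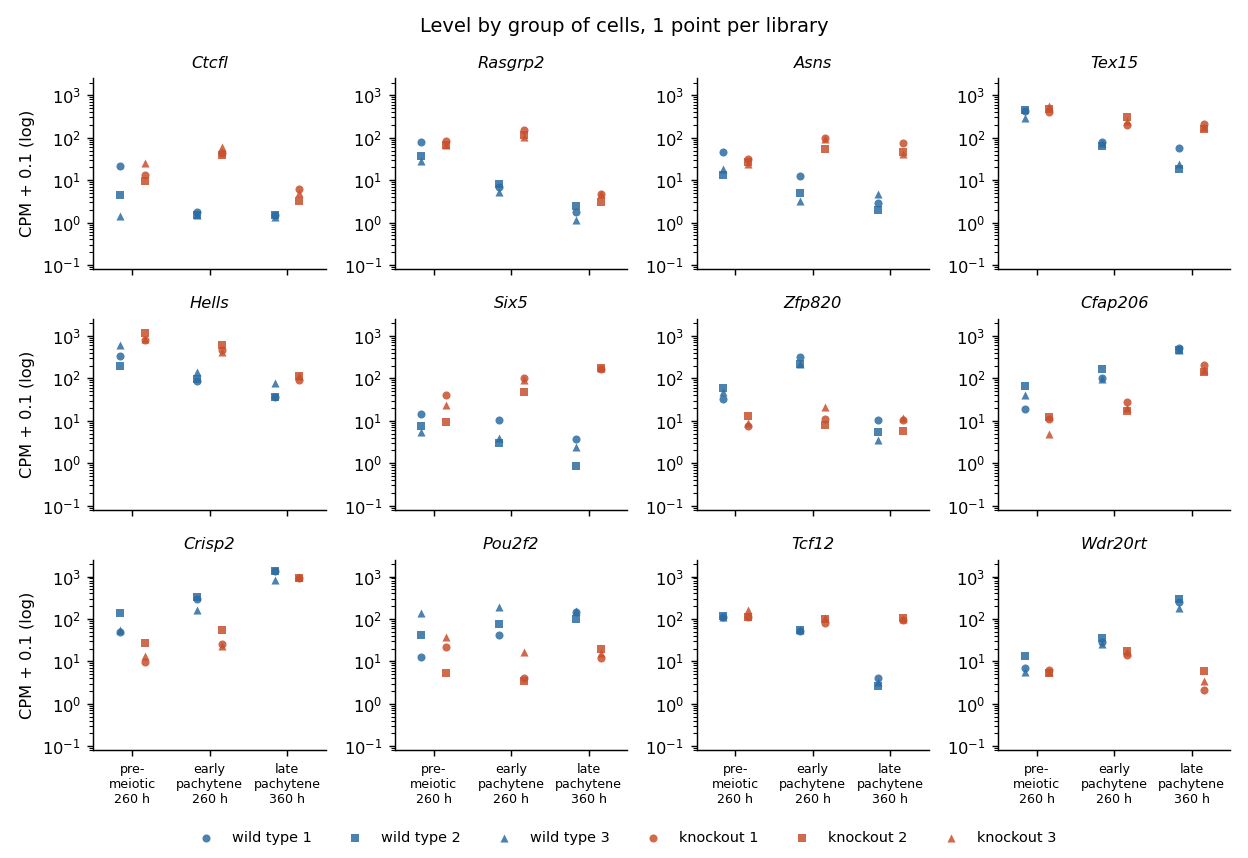
Level (vertical axis, plain CPM + 0.1, log scale) of 12 genes in pre-meiotic cells at 260 h, early pachytene cells at 260 h and late pachytene cells at 360 h, with 1 point per library, wild type in blue, knockout in orange and the replicate number given by the marker shape. Ctcfl, Rasgrp2 and Asns are apart between the genotypes in early pachytene cells and overlap in pre-meiotic cells, Zfp820 is apart in both and overlaps in late pachytene cells, and Tcf12 is at 54.5 CPM in wild-type early and 3.23 CPM in wild-type late pachytene cells.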

How the data were processed

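Single germ cells picked from testes were sequenced with a modified Smart-seq2 protocol that captures 3′ ends and carries UMIs, per the labels' protocols. The authors deposited a table of UMI counts per gene and cell for each library, with 55450 genes and 92 spike-in sequences, and a cell table with the kept cells, their cluster and annotation. STAR 2.5.3a, UMI-tools 1.0.0 and featureCounts 1.6.4 and the build mm10 are named in the submitters' processing notes. The labels state no strand setting. They do not mention doublets, and no doublet caller was run.

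The deposited counts were summed over the early pachytene cells of each library, leaving spike-ins out, so that 3 sums stood against 3. Genes were filtered with filterByExpr, scaled by TMM and tested with edgeR 4.0.16 (robust quasi-likelihood, R 4.3.3, Benjamini-Hochberg, threshold 0.05). CPM in this comparison is TMM-scaled, while CPM by cell class and for marker sums is plain. Errors after log2 fold changes are SE and those after CPM are SD over 3 libraries. Differences of the knockout effect from pre-meiotic cells were fitted with the library as a block, and those from late pachytene cells as an interaction. The main test and the test with the library as a block were run on simulated counts. For the latter the simulated spread was smaller than that of these data, and the libraries had no effect of their own. That simulation is therefore no check of the difference test at the spread of these data. Alternatives used DESeq2 1.42.0, limma 3.58.1, other scalings, filters and cells, and left out each library. Named genes were Zfp541, the 15 called genes with the largest change in each direction with a mean of at least 20 CPM, groups that do not overlap and no Gm or Rik symbol, and up to 4 called members of each list with the smallest p. For each difference they were the top 5 in each direction and up to 2 members per list. Other genes named were chosen after their values were seen. Members and lists were chosen with earlier results of these data known. Libraries were not paired by replicate number in the main fit. A merged count table of the series was not used.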

Additional observations from a re-analysis of the deposited data

Results flagged for a closer look

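For 10 genes the knockout effect in early pachytene cells differed from that in pre-meiotic cells of the same libraries by edgeR's test. The difference of the log2 fold changes was 3.53 for Rasgrp2, 3.61 for Asns, 3.17 for Tm7sf3, 3.10 for Tcf7l2 and 3.04 for Nab2, a corepressor of EGR factors, all more positive in early pachytene cells. It was −3.55 for Crybg3, −2.34 for Pou2f2, −2.05 for Zfp820, −1.47 for Leo1 and −1.43 for Smim13. The call of Nab2 was lost without wild-type replicate 2 or 3.

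For 10 genes the effect differed from that in late pachytene cells at 360 h. The difference was 5.42 for Wdr20rt, 5.12 for Rimbp3, 4.96 for Igbp1b, 4.70 for Chchd10 and 4.59 for Kcnj9, a potassium channel subunit. It was −4.71 for Zfp820, −4.38 for Acot13, −4.14 for Dip2c, −4.13 for Tmem160 and −3.92 for Tcf12. Rimbp3, a protein of the sperm manchette, was at 3.36, 5.73 and 3.03 CPM in wild-type and 20.4, 7.62 and 7.30 CPM in knockout early pachytene cells, and at 212, 216 and 178 against 28.8, 16.3 and 18.1 CPM in late pachytene cells. Chchd10 was at 65.2 CPM in late pachytene wild-type replicate 3 and at 4.97 and 3.78 CPM in the others, and its difference lost its call whichever library of 260 h was left out. That of Kcnj9 was lost without knockout replicate 2. With wild-type replicate 3 as the only wild-type library of 260 h those of Kcnj9 and Chchd10 were not called (adjusted p = 0.107 and 0.407).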

How the results depend on the processing

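The 435 calls in early pachytene cells became 858 with DESeq2, 84 with spike-in scaling and 181 with all kept cells, and ranged from 124 (without knockout replicate 1) to 936 (without wild-type replicate 3). Without wild-type replicate 2 there were 134, without knockout replicate 2 there were 220 and without knockout replicate 3 there were 178. The share of calls that were higher was 62.3%, against 45.8% with all 12 libraries in the fit, 44.8% with all kept cells and 74.7% without knockout replicate 3. The 223 differences from pre-meiotic cells became 363 with limma-voom and ranged from 72 to 411 without 1 library. The 1417 differences from late pachytene cells became 2177 with no filter and ranged from 895 to 1364. With wild-type replicate 3 as the only wild-type library, an alternative chosen after seeing the data, the counts were 401 and 692. The cause of these changes was not tested. The deviations of same-numbered libraries from their group means had correlations of −0.12, −0.22 and 0.18. Over all pairs of a wild-type and a knockout library these correlations ran from −0.26 to 0.34. They show no pairing by number but, with so few libraries, cannot exclude it. The replicate block gave 517 calls. Without 1 library, knockout minus wild type changed sign for the X-linked share (−0.0419 to 0.0696 percentage points, with 0.000965 and 0.0197 without knockout replicates 1 and 2), the mitochondrial share (−0.180 to 0.521, with −0.150 without wild-type replicate 3) and the gene UMIs per spike-in UMI (−5.32 to 0.627). The log2 fold change of Zfp541 was −0.0808 with spike-in scaling. Of the log2 fold changes of the 55 called named genes under the alternatives, 786 kept their call and 147 lost it. This tally counts 1 fit as 2 alternatives, since cluster 3 alone is the same comparison as wild-type replicate 3 alone. Among those genes, 22 lost their call with spike-in scaling, Hells, Tex15 and Tcf7l2 included. With all kept cells 16 did, Ctcfl, Asns and Atp2b1 included. Cluster 2 alone could not be fitted, because it holds no knockout cell. Low genes are limited by depth, with 1783543 gene UMIs in the smallest library.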
